A study of Mus musculus with 7 samples.

Results

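The NRF2 antioxidant target genes described here are 10 genes picked by symbol from a table of 23361 genes. They are Nfe2l2, which encodes the transcription factor NRF2, Keap1, which encodes its repressor, and 8 genes of cystine import, glutathione and thioredoxin metabolism and quinone reduction (Slc7a11, Gclc, Gclm, Gsr, Txnrd1, Prdx1, Srxn1 and Nqo1). They were measured by RNASeq in macrophages sorted from the tissue that regrew inside a conduit after the left sciatic nerve of BALB/cJ mice was cut and repaired at once. Days 5, 14 and 28 after the repair gave 3, 2 and 2 libraries, with between 18027190 and 35247116 fragments assigned to genes. Sorted cells were positive for F4/80, CD14, CD11b and CD16/32 and negative for markers of granulocytes, eosinophils, lymphocytes, red cells and fibroblasts. All mice were of the same strain with no engineered allele named, and all had isoflurane anaesthesia and the anti-inflammatory drug meloxicam, given before the operation and again a day later. Their age is not given in the sources used here, and no library from uninjured nerve was analysed here. The libraries are labelled as independent biological replicates, but whether each came from 1 mouse or from a pool is not given, so p-values measure the spread between these samples.

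NRF2 is a leucine zipper transcription factor that is made continuously and degraded continuously, because KEAP1 hands it to a CUL3 ubiquitin ligase. Oxidants and electrophiles modify cysteines of KEAP1, and NRF2 then escapes degradation, pairs with small MAF proteins and binds antioxidant response elements (AREs) near genes that make glutathione, reduce thioredoxin and detoxify quinones. The activity of NRF2 is therefore set largely at the level of its protein, which was not measured here, and in phagocytes the pathway is best known for limiting damage from the oxidants the cells make themselves.

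Between day 5 and day 28, 4 of the 10 genes rose and none fell at an adjusted p under 0.05 by edgeR's quasi-likelihood test, Benjamini-Hochberg adjusted. The 4 were Slc7a11, the cystine importer, Gclc, the catalytic subunit of the first enzyme of glutathione synthesis, Prdx1, a peroxiredoxin, and Srxn1, which repairs overoxidized peroxiredoxins. Among all 12858 genes tested, 15.2% were called in this comparison, 7.74% as higher and 7.51% as lower on day 28. Between day 5 and day 14, 0 of the 10 were called against 4.78% of all genes, and between day 14 and day 28, 0 of the 10 against 0.0622%. All 10 genes had passed the filter on low counts. They were chosen with earlier results of these data known, so these shares are given for scale and are not a test of the pathway. At an unadjusted p under 0.05, edgeR found 4 of the 10 between day 5 and day 14 (Nfe2l2, Keap1, Slc7a11 and Nqo1) and 4 between day 14 and day 28 (Slc7a11, Gclc, Txnrd1 and Srxn1), where 3083 and 1570 of all 12858 genes tested were at such a p. After adjustment DESeq2 called 1 and 2 of the 10 in these comparisons, with 1366 and 332 genes in all, and limma 0 and 0 of the 10, with 252 and 0 genes in all.

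The median log2 fold change of the 10 genes was 0.26 between day 5 and day 14, 0.45 between day 14 and day 28, and 0.85 between day 5 and day 28. Over all genes tested the medians were 0.03, 0.01 and 0.03. Every day is used in a pair of these comparisons, so their values are given side by side and are not independent of each other. By FPKM (fragments scaled for transcript length and by the factor that the authors' program Cuffdiff gave each library), for 7 of the 10 genes the lower day 28 library exceeded the highest day 5 library, a pattern that 26% of all genes tested showed. For 1 of the 10, Nfe2l2, both lay below, as for 25.6% of all genes tested. Keap1 and Gsr were the pair whose day 5 and day 28 libraries overlapped.

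**Figure D1:**
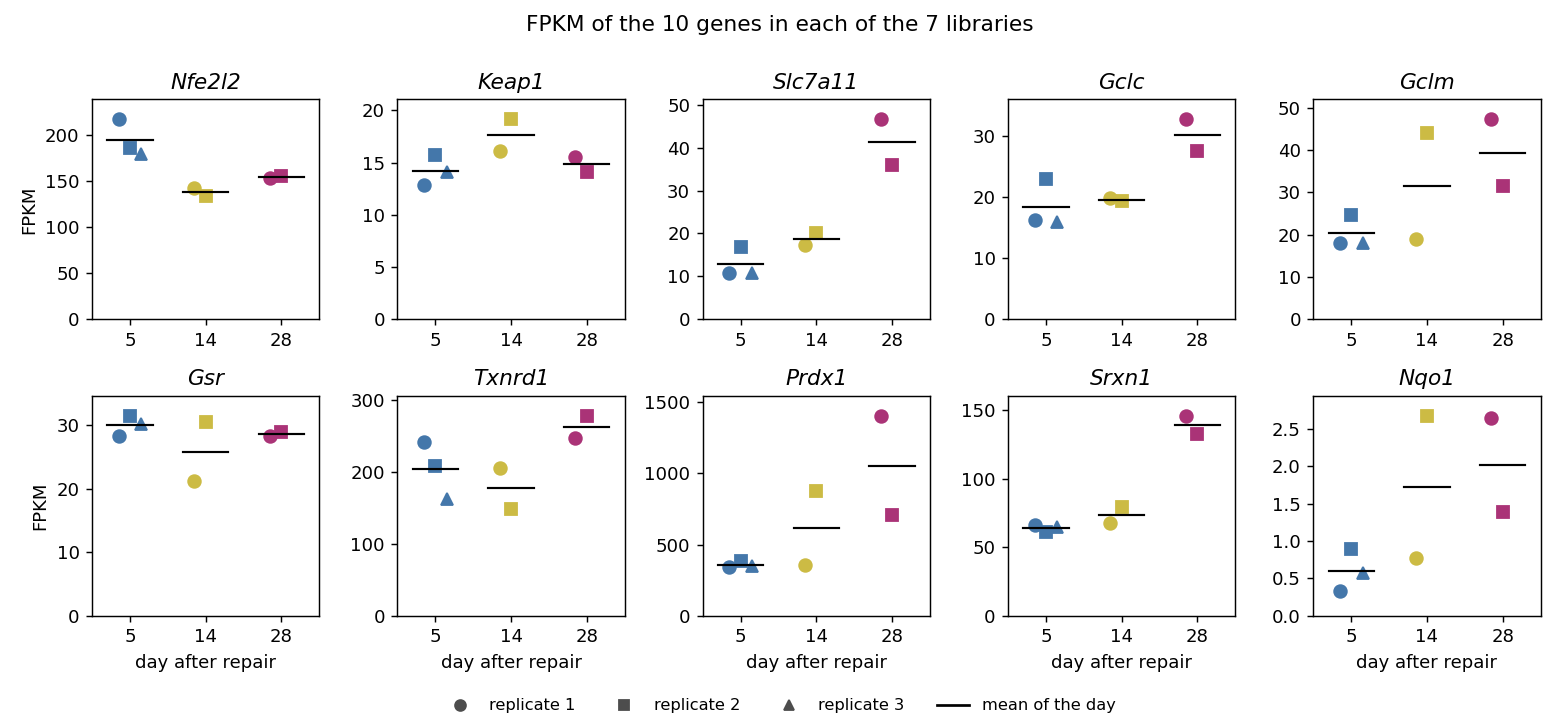
FPKM of each of the 10 genes (vertical axis, from 0, a scale of its own in each panel) by day after repair, with 1 point for each of the 7 libraries and a line at the mean of the day. Srxn1 and Slc7a11 are high in both day 28 libraries alone, whereas Prdx1, Gclm and Nqo1 are also high in replicate 2 of day 14.

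The genes differed widely in level. Averaged over the 7 libraries, Prdx1 was the most abundant at 631 FPKM, rank 126 of all genes in the table, followed by Txnrd1 at 213.5 and Nfe2l2 at 167 FPKM. The libraries of these last genes overlapped, from 149 to 278 FPKM for Txnrd1 and from 134 to 217 for Nfe2l2. Srxn1 averaged 88.2 FPKM. Gclm, Gsr, Slc7a11, Gclc and Keap1 formed a lower tier, with averages of 29.0, 28.4, 22.6, 22.0 and 15.4 FPKM and ranges that overlapped between neighbours in this order. The order within this tier depended on the day, since the mean of Slc7a11 was below that of Keap1 on day 5 (12.9 against 14.2 FPKM) and the highest of the tier on day 28 (41.2 FPKM). Nqo1 was far below the rest at 1.33 FPKM, with 11 to 138 fragments in a library, so its values carry more counting error than those of the other 9 genes.

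Nfe2l2 lies at chr2:75675513-75704641 on the minus strand (coordinates of gene bodies are those of GENCODE on GRCm38). Its level was 217, 186 and 179 FPKM on day 5, 142 and 134 FPKM on day 14, and 153 and 155 FPKM on day 28. All 3 day 5 libraries were above all 4 later ones, and the pairs of libraries of day 14 and of day 28 were close together. The log2 fold change was -0.48 ± 0.12 (SE) from day 5 to day 14, with an adjusted p of 0.0562 by edgeR's quasi-likelihood test, Benjamini-Hochberg adjusted, and -0.32 ± 0.12 from day 5 to day 28 (adjusted p = 0.111). The first of these crossed the threshold with DESeq2 (adjusted p = 0.0057), without the expression filter (adjusted p = 0.0289) and without replicate 1 of day 14 (adjusted p = 0.0433 by edgeR), and over all alternatives its adjusted p ran from 0.0057 to 0.18. Day 5, where Nfe2l2 was highest, was the day with the lowest mean FPKM for 6 of the 8 target genes (Slc7a11, Gclc, Gclm, Prdx1, Srxn1 and Nqo1).

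Keap1, at chr9:21229730-21239361 on the minus strand, varied little. Its 7 libraries ran from 12.8 to 19.1 FPKM, with 16.1 and 19.1 FPKM on day 14 above every library of day 5 and of day 28. Its log2 fold changes were 0.32 ± 0.13 from day 5 to day 14 (adjusted p = 0.168 by edgeR's quasi-likelihood test, Benjamini-Hochberg adjusted) and 0.05 ± 0.13 from day 5 to day 28 (adjusted p = 0.815). An antisense gene, Gm16754, overlaps exons of Keap1, and since strand was not stated to be used in counting, reads of the pair cannot be told apart. The ratio of Nfe2l2 to Keap1 in FPKM was 16.9, 11.8 and 12.7 on day 5, 8.81 and 7.01 on day 14, and 9.85 and 11.0 on day 28. Every later library had a lower ratio than any day 5 library.

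Slc7a11 encodes the light chain of the exchanger that brings cystine into the cell in return for glutamate, and so supplies the cysteine of glutathione. It spans chr3:49892526-50443614 on the minus strand. Its level was 10.9, 16.9 and 10.8 FPKM on day 5, 17.3 and 20.01 FPKM on day 14, and 46.6 and 35.9 FPKM on day 28. The 3 days did not overlap, and the gap between day 14 and day 28 was wider than that between day 5 and day 14. From day 5 to day 28 the mean rose 3.21-fold, a log2 fold change of 1.70 ± 0.21 (SE) with an adjusted p of 0.00191 by edgeR's quasi-likelihood test, Benjamini-Hochberg adjusted. The steps that make up this rise were 0.55 ± 0.21 from day 5 to day 14 (adjusted p = 0.151) and 1.15 ± 0.23 from day 14 to day 28 (adjusted p = 0.1), neither of which passed on its own by edgeR with all 7 libraries. The first passed without the expression filter (adjusted p = 0.0439), and the second with DESeq2 (adjusted p = 0.000121), without the expression filter (adjusted p = 0.000513) and without replicate 2 of day 14 (adjusted p = 0.0229 by edgeR), with a highest adjusted p over all alternatives of 0.424 and 0.525. The day 5 to day 28 call held in each of 7 fits that left out 1 library, with adjusted p between 9.66e-05 and 0.0274.

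The promoter of Slc7a11, from 250 bases before to 50 bases after its start, is shown because Slc7a11 is a known target both of NRF2 and of ATF4, the transcription factor of the amino acid stress response. It is given 5′ to 3′ on the gene's own minus strand, chr3:50443564-50443863, from RefSeq (GRCm38.p6, the C57BL/6J reference, a different strain from the mice used). Capitals mark the letters TGATGCAA on either strand, the core of sites that ATF4 is known to bind, a motif picked after this sequence had been seen.
Slc7a11: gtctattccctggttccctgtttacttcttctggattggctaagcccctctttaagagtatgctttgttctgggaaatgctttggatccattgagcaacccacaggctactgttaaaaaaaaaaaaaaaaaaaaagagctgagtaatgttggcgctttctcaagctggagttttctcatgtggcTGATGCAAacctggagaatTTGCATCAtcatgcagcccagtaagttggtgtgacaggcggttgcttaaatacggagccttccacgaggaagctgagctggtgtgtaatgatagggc
These letters occur at a pair of places, from 66 to 59 bases before the start on the gene's strand and from 47 to 40 bases before it on the other strand. Of the 32851 promoters of this length in the table, 294 (0.89%) hold them at least once. The ARE core TGACNNNGC was not found on either strand of this window.

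Gclc and Gclm encode the catalytic and the modifier subunit of glutamate-cysteine ligase, the rate-limiting enzyme of glutathione synthesis. Gclc (chr9:77754535-77794485, plus strand) was at 16.3, 22.9 and 15.9 FPKM on day 5, 19.8 and 19.3 FPKM on day 14, and 32.7 and 27.4 FPKM on day 28. Day 14 fell inside the range of day 5, and both day 28 libraries stood above all the others. The log2 fold change from day 5 to day 28 was 0.73 ± 0.16 (adjusted p = 0.0198 by edgeR's quasi-likelihood test, Benjamini-Hochberg adjusted), against 0.10 ± 0.17 from day 5 to day 14 (adjusted p = 0.754). From day 14 to day 28 it was 0.63 ± 0.18, which did not pass (adjusted p = 0.215 by edgeR) except without the expression filter (adjusted p = 0.0379). The call was lost without replicate 1 of day 5 (adjusted p = 0.0784), without replicate 3 of day 5 (adjusted p = 0.0658) and without replicate 1 of day 28 (adjusted p = 0.149, log2 fold change 0.59) in the same edgeR test. Over all alternatives the adjusted p ran from 0.000918 to 0.149 and the log2 fold change from 0.59 to 0.92.

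Gclm (chr3:122245557-122270732, plus strand) behaved differently on day 14. It was at 18.1, 24.8 and 18.1 FPKM on day 5, 19.1 and 44.1 FPKM on day 14, and 47.3 and 31.5 FPKM on day 28. One day 14 library was thus within the day 5 range and the other within the day 28 range, while day 5 and day 28 did not overlap. The log2 fold change of 0.97 ± 0.31 from day 5 to day 28 did not pass (adjusted p = 0.0661 by edgeR's quasi-likelihood test, Benjamini-Hochberg adjusted). It passed with DESeq2 (adjusted p = 0.00992), without the expression filter (adjusted p = 0.00264), with the day 5 and day 28 libraries fitted alone (adjusted p = 0.00342), and without either day 14 library (adjusted p = 0.00292 and 0.00327 by edgeR), the widest value over all alternatives being 0.376. The spread between the day 14 libraries enters the error of every comparison, since all 3 days share 1 estimate of it. An exon of Gclm is overlapped by Gm17494 on the other strand and by the pseudogene Gm6061, whose reads cannot be told apart from its own. The ratio of Gclm to Gclc in FPKM was between 1.08 and 1.14 in the day 5 libraries, 0.963 and 2.29 on day 14, and 1.45 and 1.15 on day 28.

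Gsr (chr8:33652523-33698163, plus strand) encodes glutathione reductase, which regenerates glutathione with NADPH. Its libraries ran from 21.2 to 31.4 FPKM, and the days overlapped in all 3 comparisons. The lowest value belonged to replicate 1 of day 14, and the other 6 libraries lay between 28.3 and 31.4 FPKM. Its log2 fold change from day 5 to day 28 was -0.05 ± 0.15, with an adjusted p of 0.843 by edgeR's quasi-likelihood test, Benjamini-Hochberg adjusted.

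Txnrd1 (chr10:82833951-82897712, plus strand) encodes the cytosolic thioredoxin reductase. It was at 242, 209 and 163 FPKM on day 5, 206 and 149 FPKM on day 14, and 248 and 278 FPKM on day 28. Both day 28 libraries were the highest of the 7, the first of them by a small margin over replicate 1 of day 5. No comparison passed, with log2 fold changes of 0.37 ± 0.19 from day 5 to day 28 (adjusted p = 0.211) and 0.57 ± 0.21 from day 14 to day 28 (adjusted p = 0.323) by edgeR's quasi-likelihood test, Benjamini-Hochberg adjusted.

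Prdx1 encodes a peroxiredoxin that reduces hydrogen peroxide with electrons from thioredoxin. It lies at chr4:116685544-116700822 on the plus strand. Its level was 344, 384 and 346 FPKM on day 5, 358 and 874 FPKM on day 14, and 1401 and 707 FPKM on day 28. The day 5 libraries were close together, whereas the later days were spread widely, with replicate 1 of day 14 inside the day 5 range and replicate 2 of day 14 above replicate 2 of day 28. The highest library was 2.44 times the lowest within day 14 and 1.98 times within day 28, against a median of 1.15 and 1.13 times over the 7555 genes tested with a mean of at least 5 FPKM and no library at 0. From day 5 to day 28 the mean rose 2.94-fold, a log2 fold change of 1.57 ± 0.35 (adjusted p = 0.0197 by edgeR's quasi-likelihood test, Benjamini-Hochberg adjusted). This call was lost without replicate 1 of day 28, where the log2 fold change was 0.99. It was also lost when any 1 library of day 5 was left out of the edgeR fit, though the log2 fold change stayed about as large. Without replicates 1, 2 and 3 of day 5 it was 1.544, 1.625 and 1.552, with adjusted p of 0.0733, 0.0586 and 0.0634 by edgeR. The range over all alternatives was 3.47e-05 to 0.191. The steps of Prdx1 were 0.79 ± 0.36 from day 5 to day 14 (adjusted p = 0.21) and 0.78 ± 0.40 from day 14 to day 28 (adjusted p = 0.463) by edgeR, with standard errors larger than those of Srxn1, and neither passed. The first passed without the expression filter (adjusted p = 0.0408) and without replicate 1 of day 14 (adjusted p = 0.00768 by edgeR), and the second without replicate 2 of day 14 (adjusted p = 0.0164 by edgeR). With 1 library left out the first step ran from 0.005 to 1.302 and the second from 0.192 to 1.565. A pseudogene, Prdx1-ps, is annotated for this gene, and how the counting shared reads with it is not given in the sources used here.

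Srxn1 encodes sulfiredoxin, which returns overoxidized peroxiredoxins such as PRDX1 to their active form. It lies at chr2:152105516-152111376 on the plus strand. Its level was 66.6, 61.0 and 64.7 FPKM on day 5, 67.6 and 79.6 FPKM on day 14, and 146 and 132 FPKM on day 28. The libraries of each day were close together, and both day 28 libraries were far above the other 5. The mean rose 2.17-fold from day 5 to day 28, a log2 fold change of 1.13 ± 0.12 with an adjusted p of 0.00101 by edgeR's quasi-likelihood test, Benjamini-Hochberg adjusted. Most of this lay after day 14, with a log2 fold change of 0.21 ± 0.12 up to day 14 (adjusted p = 0.329) and 0.92 ± 0.13 from then to day 28 (adjusted p = 0.0514). The day 14 to day 28 value passed with DESeq2 (adjusted p = 3.73e-07), without the expression filter (adjusted p = 0.000492) and without replicate 2 of day 14 (adjusted p = 0.00237 by edgeR), and its highest adjusted p over the alternatives was 0.33. The day 5 to day 28 call of Srxn1 held in each of the 7 fits that left out 1 library (adjusted p between 3.11e-05 and 0.0175).

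The promoters of Prdx1 (chr4:116685349-116685648) and Srxn1 (chr2:152105274-152105573), both on the plus strand and from the same RefSeq table, are shown because these neighbouring steps of peroxide removal both rose. Capitals mark the ARE core TGACNNNGC on either strand and the AP-1 letters TGACTCA or TGAGTCA, which are each other's reverse complement.
Prdx1: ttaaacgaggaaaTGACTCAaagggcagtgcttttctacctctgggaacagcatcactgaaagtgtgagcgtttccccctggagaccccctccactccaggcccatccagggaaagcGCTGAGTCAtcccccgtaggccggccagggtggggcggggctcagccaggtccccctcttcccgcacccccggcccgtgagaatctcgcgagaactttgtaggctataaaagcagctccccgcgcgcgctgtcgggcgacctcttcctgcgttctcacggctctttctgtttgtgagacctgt
Srxn1: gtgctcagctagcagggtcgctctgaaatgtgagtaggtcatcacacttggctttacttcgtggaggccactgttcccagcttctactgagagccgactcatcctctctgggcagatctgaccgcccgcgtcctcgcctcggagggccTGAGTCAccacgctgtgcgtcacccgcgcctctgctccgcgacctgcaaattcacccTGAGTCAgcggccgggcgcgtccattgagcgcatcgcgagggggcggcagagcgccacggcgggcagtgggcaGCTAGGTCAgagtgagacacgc
In Prdx1 the ARE core was found on the minus strand from 133 to 125 bases before the start, where it contains an AP-1 match, and a separate AP-1 match lay from 237 to 231 bases before the start. In Srxn1 AP-1 matches lay from 102 to 96 and from 45 to 39 bases before the start, and an ARE core that overlapped neither of them lay after it. Promoters were found for 8 of the 10 genes, in 10 entries because Txnrd1 has 3 of them, and an ARE core was present in those of Nfe2l2, Gclm, Srxn1, Prdx1 and 1 of the entries of Txnrd1. Of all 32851 promoters, 12.39% hold the ARE core and 5.2% an AP-1 match. These matches describe letters within a short window and not binding, and AREs farther from the start were not searched.

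Nqo1 (chr8:107388225-107403206, minus strand) encodes the NAD(P)H quinone reductase that is often used as a readout of NRF2 in other cells. It was at 0.334, 0.899 and 0.574 FPKM on day 5, 0.777 and 2.67 FPKM on day 14, and 2.64 and 1.38 FPKM on day 28. As for Gclm and Prdx1, replicate 2 of day 14 was among the high libraries and replicate 1 was within the day 5 range. The log2 fold change from day 5 to day 28 was 1.78 ± 0.60 and did not pass (adjusted p = 0.0772 by edgeR's quasi-likelihood test, Benjamini-Hochberg adjusted). It passed with DESeq2 (adjusted p = 0.0314), without the expression filter (adjusted p = 0.0193), with the day 5 and day 28 libraries fitted alone (adjusted p = 0.0278) and without either day 14 library (adjusted p = 0.0235 and 0.0322 by edgeR), while the highest value over the alternatives was 0.395.

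**Figure D2:**
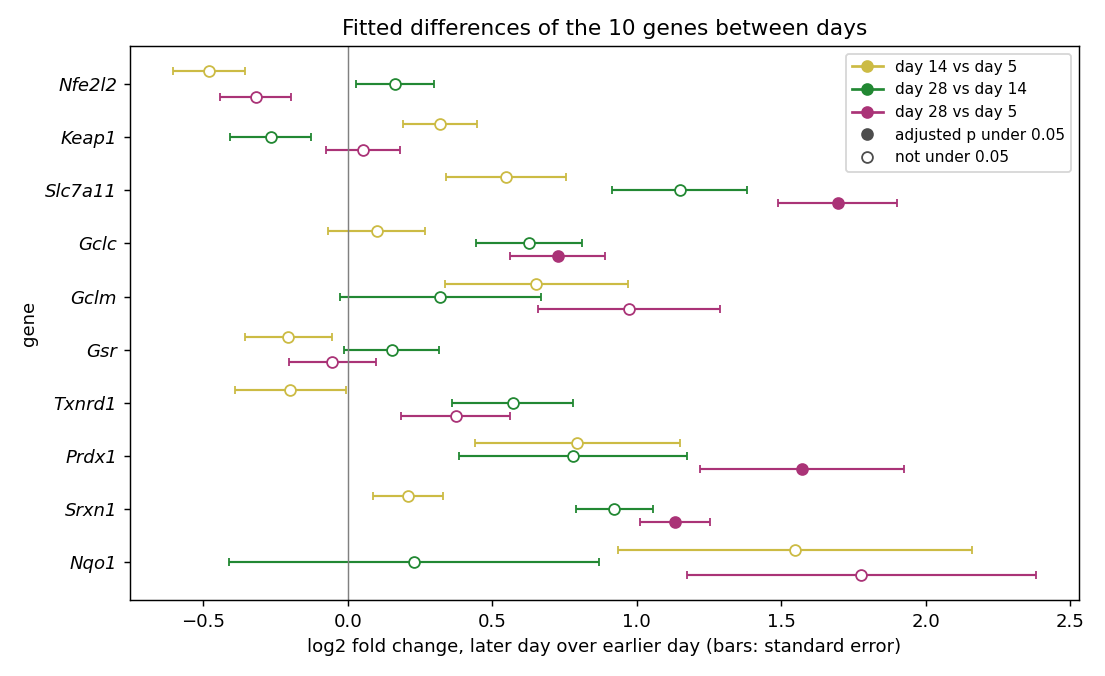
Fitted log2 fold change (horizontal axis) of each of the 10 genes in the 3 comparisons of days, with bars of 1 standard error. Filled points passed an adjusted p of 0.05, which only Slc7a11, Gclc, Prdx1 and Srxn1 did, in the comparison of day 28 with day 5.

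A stricter criterion adds to the edgeR call a fold of at least 2 between mean FPKM values and a mean of at least 5 FPKM on 1 of the days. It follows the stringent set of the methods, with edgeR in place of cuffdiff for significance. Slc7a11, Prdx1 and Srxn1 met it in the comparison of day 28 with day 5, 3 of the 10 genes, against 1.51% of all genes tested that met it as higher. Since the 10 genes were chosen with earlier results of these data known, this is not a comparison with an independent list. Gclc did not, since its mean rose 1.64-fold.

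Leaving out a library also moved the comparisons that gave 0 calls. Without replicate 1 of day 14, edgeR called 4 of the 10 genes between day 5 and day 14, Gclm, Prdx1 and Nqo1 as higher and Nfe2l2 as lower, and 1728 genes in all. Without replicate 2 of day 14, it called 4 between day 14 and day 28, Slc7a11, Gclm, Prdx1 and Srxn1, all as higher, and 629 genes in all. In such fits the lone day 14 library is assumed to vary like those of the other days. The 10 genes therefore gave different counts for day 14 depending on which of its libraries was kept.

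**Figure D3:**
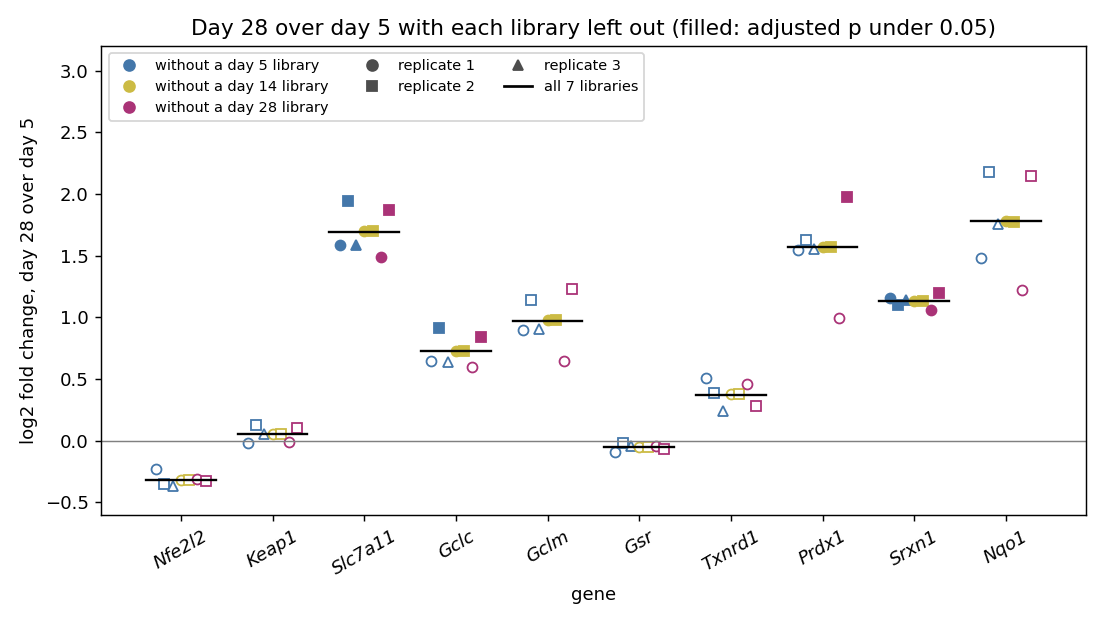
Log2 fold change from day 5 to day 28 (vertical axis) of each of the 10 genes with each of the 7 libraries left out in turn, coloured by the day and shaped by the replicate left out, and a line for all 7 libraries. Filled points passed an adjusted p of 0.05, as all 7 did for Slc7a11 and Srxn1, and leaving out replicate 1 of day 28 lowered Prdx1 from 1.57 to 0.99.

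Libraries of 1 day differed more for some of the 10 genes than for others. Within day 14 the higher library was 3.44 times the lower for Nqo1, 2.44 times for Prdx1 and 2.31 times for Gclm, and in all 3 of them replicate 2 was the higher. The same ratio was 1.03 for Gclc, 1.06 for Nfe2l2, 1.16 for Slc7a11, 1.18 for Srxn1, 1.19 for Keap1, 1.38 for Txnrd1 and 1.44 for Gsr, against the median of 1.15 given above. Nqo1, with a mean of 1.33 FPKM, lies outside that median, which covers genes with a mean of at least 5 FPKM. Within day 28, replicate 1 was the higher library for Nqo1 (1.91 times), Prdx1 (1.98 times) and Gclm (1.5 times), while Nfe2l2 and Gsr differed by 1.01 and 1.02 times. On day 5 the largest ratio was again that of Nqo1, at 2.69, followed by Slc7a11 at 1.56 and Txnrd1 at 1.49. Replicate 1 of day 28 was also the deepest library, with 35247116 fragments against 18101976 in replicate 2, and FPKM values are scaled for this. The ribosomal RNA gene Rn45s took 0.863% of its fragments, against 1.85% to 3.12% in the other 6 libraries. The part of depth and of this share in the values of Prdx1 and the other 9 genes was not tested.

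Summed over the 10 genes, the libraries reached 955.9, 952.5 and 842.6 FPKM on day 5, 867.9 and 1372 FPKM on day 14, and 2121 and 1412 FPKM on day 28. Prdx1 was the largest term of this sum in every library.

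Over the 7 libraries, log2(FPKM + 1) of Gclm was closest to that of Nqo1 (Pearson r = 0.979) and Prdx1 (r = 0.962), which share a high replicate 2 of day 14. Slc7a11 was closest to Gclc (r = 0.96) and Srxn1 (r = 0.93), which were high on day 28 alone. These 6 genes do not split cleanly, since Prdx1 was also close to Slc7a11 (r = 0.87) and Srxn1 was as close to Prdx1 (r = 0.853) as to Gclc (r = 0.847). Nfe2l2 had negative correlations with 7 of the other 9 genes, down to -0.79 with Keap1. Gsr had no correlation above 0.335 with any of the other 9 genes, and Txnrd1 ran from -0.587 with Keap1 to 0.592 with Gclc. These coefficients describe 7 libraries that share the same days, and no test was made of them.

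Among all 7613 genes of the table with a mean of at least 5 FPKM, tested or not, those most like Slc7a11 over the 7 libraries were Tmem198b (r = 0.993), Mmp19 (r = 0.986) and Anxa4 (r = 0.984). Among those most like Srxn1 were Farsb (r = 0.986) and Lrrc32 (r = 0.979). Prdx1 was most like Hmgcs1 (r = 0.99), Lipa (r = 0.989) and Taldo1 (r = 0.989), and Gclc was most like Ptpra (r = 0.983), Itga4 (r = 0.983) and Foxj3 (r = 0.964). Taldo1, transaldolase of the pentose phosphate pathway, is also in the list of NADPH supply described next.

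Of 56 other genes of the pathway in 5 lists, 54 could be tested. Between day 5 and day 28, 9 of them rose and 5 fell, where 7.74% of all genes tested were called as higher and 7.51% as lower. These shares also stand beside the counts of the lists below. The median log2 fold change was 0.12, against 0.85 for the 10 genes and 0.03 for all genes tested. Between day 5 and day 14, 7 rose and 1 fell by edgeR, which called 4.78% of all genes tested. DESeq2 called 13 and limma 5, with 1366 and 252 genes in all. Between day 14 and day 28 edgeR called 0, with 2 at an unadjusted p under 0.05, and DESeq2 called 1 (Osgin1) and limma 0. In the comparison of day 28 with day 5, DESeq2 called 20 and limma 12, with 2485 and 1802 genes in all.

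Of 9 partners and regulators of NRF2, edgeR called 0 in each of the 3 comparisons, with 2, 0 and 1 at an unadjusted p under 0.05 in the order of day 14 against day 5, day 28 against day 14 and day 28 against day 5. DESeq2 called 1, 0 and 1 (Mafg and Bach1) and limma 0 in each. Their median log2 fold change from day 5 to day 28 was -0.26, and the most abundant was Sqstm1, an autophagy receptor that binds KEAP1, with a log2 fold change of -0.35 ± 0.25 (adjusted p = 0.371 by edgeR's quasi-likelihood test, Benjamini-Hochberg adjusted). Bach1, a repressor that competes with NRF2 for AREs, was at 109, 92.0 and 82.7 FPKM on day 5 and 49.4 and 56.5 FPKM on day 28, chosen here after its values were seen, and its log2 fold change of -0.83 ± 0.26 did not pass (adjusted p = 0.0638).

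In the glutathione list, 13 of 15 genes were tested, and 2 rose and 1 fell from day 5 to day 28. Gss, glutathione synthetase, which acts just after the product of Gclc and Gclm, rose by a log2 fold change of 0.94 ± 0.18 (adjusted p = 0.0105 by edgeR's quasi-likelihood test, Benjamini-Hochberg adjusted) and had already risen by 0.96 ± 0.18 on day 14 (adjusted p = 0.0254). Gsto1 rose by 0.44 ± 0.13 (adjusted p = 0.0488), and Gstm1 passed on day 14, at 0.77 ± 0.16 (adjusted p = 0.0366), and on day 28 with DESeq2 but not with edgeR (0.554 ± 0.165, adjusted p = 0.0511). DESeq2 also called Gpx3 on both days, where edgeR gave 0.959 ± 0.251 (adjusted p = 0.0597) and 0.845 ± 0.25 (adjusted p = 0.0505). Glrx, glutaredoxin, fell from 127, 120 and 120 FPKM on day 5 to 55.7 and 41.0 FPKM on day 28, a log2 fold change of -1.32 ± 0.17 (adjusted p = 0.0021), with -0.97 ± 0.17 by day 14 (adjusted p = 0.02), while Gpx1, the most abundant of the list, did not pass (adjusted p = 0.381 between day 5 and day 28).

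In the list of other thioredoxin, peroxiredoxin and sestrin genes, 3 of 12 rose and 1 fell from day 5 to day 28. Txn1, the thioredoxin that feeds Prdx1, rose by a log2 fold change of 0.69 ± 0.18 (adjusted p = 0.035 by edgeR's quasi-likelihood test, Benjamini-Hochberg adjusted). Txnip, which binds and inhibits thioredoxin, rose by 1.26 ± 0.14 (adjusted p = 0.00141) and by 1.21 ± 0.14 already on day 14 (adjusted p = 0.00855), and Sesn1, a sestrin, rose by 1.12 ± 0.17 (adjusted p = 0.0037) and by 0.94 ± 0.17 on day 14 (adjusted p = 0.021). Prdx5 had a log2 fold change of -0.47 ± 0.13 (adjusted p = 0.0372), opposite in sign to that of Prdx1. Of 6 genes that supply NADPH, edgeR called Taldo1, at 0.62 ± 0.17 (adjusted p = 0.0362), while DESeq2 called Pgd and Tkt as well, and all 6 had log2 fold changes above 0, with a median of 0.59.

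Among 14 genes of haem, quinone and radical handling, 3 rose and 3 fell from day 5 to day 28, with a median log2 fold change of 0.08. Hmox1, haem oxygenase 1, is a textbook target of NRF2 that BACH1 represses. It was at 1029, 1263 and 883 FPKM on day 5, 1023 and 646 FPKM on day 14, and 550 and 552 FPKM on day 28. It fell while Slc7a11, Gclc, Prdx1 and Srxn1 rose, with a log2 fold change of -0.93 ± 0.21 (adjusted p = 0.0204 by edgeR's quasi-likelihood test, Benjamini-Hochberg adjusted). Blvra, the next enzyme in haem breakdown (-0.50 ± 0.11, adjusted p = 0.0198), and Sod2, the mitochondrial superoxide dismutase (-0.92 ± 0.22, adjusted p = 0.0226), were also lower by the same test. Ephx1, microsomal epoxide hydrolase, was at 1.26, 4.84 and 1.65 FPKM on day 5 and 47.6 and 45.5 FPKM on day 28, a log2 fold change of 4.21 ± 0.53 (adjusted p = 0.00206), with 3.62 ± 0.53 by day 14 (adjusted p = 0.0136). Cbr3, a carbonyl reductase, rose by 1.08 ± 0.22 (adjusted p = 0.0143) and by 1.03 ± 0.22 on day 14 (adjusted p = 0.0383), and Cat, catalase, by 0.60 ± 0.14 on day 28 (adjusted p = 0.022). Osgin1 passed on day 14, at 1.57 ± 0.21 (adjusted p = 0.0118), and not on day 28 (0.535 ± 0.217, adjusted p = 0.129), and the ferritin gene Ftl1, the most abundant of the list, did not pass (adjusted p = 0.397 between day 5 and day 28).

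Slc7a11 is shared with the amino acid stress response, so a list of 11 genes of that response, Atf4 itself among them, was also read, with a median log2 fold change of 0.36 from day 5 to day 28 (Chac1, Slc3a2 and Sesn2 are also in the pathway lists above, and Atf3 in the immediate early list below). On the log2 scale Asns rose by 1.23 ± 0.36 (adjusted p = 0.0464) and Psat1 by 0.83 ± 0.16 (adjusted p = 0.0109) from day 5 to day 28 by edgeR's quasi-likelihood test, Benjamini-Hochberg adjusted, which did not call the other 9, among them the most abundant, Atf3 (0.36 ± 0.15, adjusted p = 0.146), and Chac1 (2.186 ± 0.738, adjusted p = 0.076), which limma called. Of 7 genes that produce oxidants, Ncf1, a subunit of the phagocyte oxidase, rose by 0.63 ± 0.18 (adjusted p = 0.0421), and Nos2, the inducible nitric oxide synthase, fell from 10.5, 2.85 and 6.34 FPKM on day 5 to 0.0478 and 0.096 FPKM on day 28 (-6.61 ± 1.23, adjusted p = 0.00924), while Cyba, the most abundant, did not pass (adjusted p = 0.905).

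Most of these single calls were less stable than those of Slc7a11 and Srxn1. Of the pathway calls by edgeR, limma on log2(FPKM + 1) did not make those of Gsto1, Txn1 and Taldo1 between day 5 and day 28 or those of Gss, Gstm1 and Cbr3 between day 5 and day 14. Counting the immediate early genes below, 20 genes of these lists were called between day 5 and day 28, and 4 of them (Glrx, Txnip, Sesn1 and Ephx1) were called by edgeR whichever of the 7 libraries was left out. Between day 5 and day 14 the same held for 2 of 12, Txnip and Jun. Without 1 library the adjusted p of Hmox1 between day 5 and day 28 reached 0.126, that of Gss 0.107, that of Txn1 0.268 and that of Nos2 0.116.

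**Figure D4:**
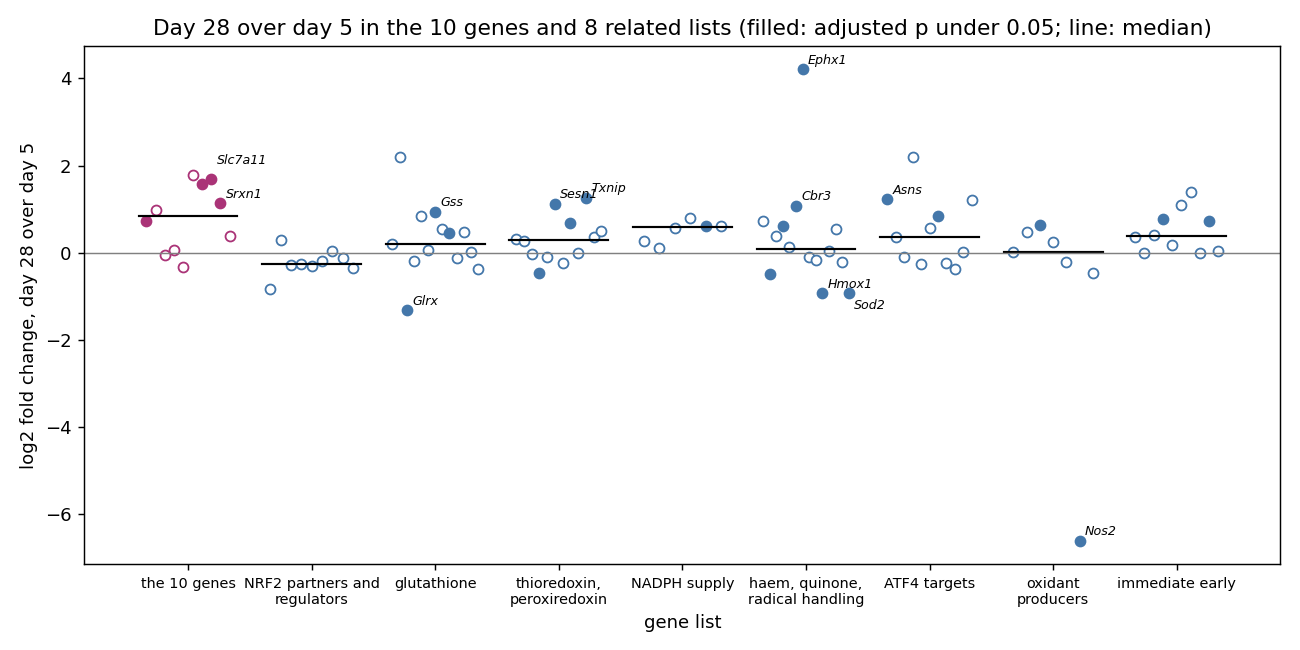
Log2 fold change from day 5 to day 28 (vertical axis) of the 10 genes and of the genes tested in 8 related lists (horizontal axis), with a line at each median. Filled points passed an adjusted p of 0.05, and the medians are 0.85 for the 10 genes and between -0.26 and 0.59 for the lists.

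The sorted cells carried the RNA of the markers used to sort them. All 10 macrophage markers were above 3 fragments in every library, with a summed level of 16500 to 22600 FPKM, most of it from Lyz2. The F4/80 gene, listed as Emr1, had log2 fold changes of -0.46 ± 0.17 by day 14 (adjusted p = 0.139) and -1.01 ± 0.17 by day 28 (adjusted p = 0.0065), and Cd14 of -0.75 ± 0.16 (adjusted p = 0.0357) and -0.76 ± 0.16 (adjusted p = 0.0145), all by edgeR's quasi-likelihood test, Benjamini-Hochberg adjusted. The calls of Emr1 and Cd14 were each lost in some of the edgeR fits that left out 1 library. Itgam, Fcgr3, Fcgr2b, Csf1r, Cd68, Lyz2, Ptprc and Mertk were not called. In such bulk samples, fewer cells of a type and less RNA per cell cannot be told apart.

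Several marker sets moved over the same days as Slc7a11, Gclc, Prdx1 and Srxn1. The 6 dendritic cell markers summed to 16.1, 28.5 and 11.5 FPKM on day 5, 52.1 and 179 FPKM on day 14, and 308 and 293 FPKM on day 28, most of it from day 14 on being Itgax, which macrophages can also express. By edgeR, Itgax (log2 fold change 4.77 ± 0.66, adjusted p = 0.00291) and Ccr7 (1.425 ± 0.394, adjusted p = 0.04) were called as higher from day 5 to day 28. Zbtb46 (0.43), Xcr1 (0.78), Clec9a (0.693) and Flt3 (-0.163) were not called (adjusted p = 0.548, 0.338, 0.711 and 0.888 by edgeR). These uncalled markers averaged between 0.166 and 0.931 FPKM. Replicate 2 of day 14, the library in which Prdx1, Gclm and Nqo1 were high, was the higher of the day 14 libraries in this sum too. The 6 endothelial markers, led by Kdr, summed to 27.8, 15.7 and 21.7 FPKM on day 5, 14.2 and 8.17 FPKM on day 14 and 7.13 and 4.64 FPKM on day 28. From day 5 to day 28 edgeR called Kdr (log2 fold change -3.02 ± 0.42, adjusted p = 0.0029) and Pecam1 (-1.80 ± 0.37, adjusted p = 0.0145) as lower. Tek of this set, with 0 to 2 fragments on day 5, was called as higher by edgeR (4.63 ± 1.06, adjusted p = 0.0208). The 5 erythroid markers, led by Hba-a1, summed to 39.3, 43.6 and 28.2 FPKM, then 49.4 and 7.52 FPKM, then 2.22 and 9.85 FPKM. T cell markers, led by Cd2, summed to 6.77 to 7.63 FPKM on day 5 and 17.3 to 20.5 FPKM later, nearly all of it Cd2 and Cd4. Cd3g was at 0 in every library of days 5 and 28. On days 5, 14 and 28 Cd3e averaged 0.107, 0.113 and 0.084 FPKM, and Cd3d 0.117, 0.32 and 0.0575 FPKM, with at most 10 fragments in a library. Schwann cell markers, nearly all of it Mbp with Gfap at or under 3 fragments throughout, summed to 10.7 to 11.5 FPKM on day 5 and 12.9 to 19.9 FPKM later. The 7 fibroblast markers, led by Col1a1, summed to 28.8 to 74.1 FPKM on day 5, 223 and 81.2 FPKM on day 14, and 35.6 and 57.0 FPKM on day 28, and the 7 neutrophil markers that could be read, led by S100a9, to 242 to 279 FPKM, then 500.0 and 522 FPKM, then 254 and 105 FPKM, with Elane at 0 and Ly6g not analysed here. The markers of eosinophils and mast cells, led by Siglec5 (log2 fold change 1.85 ± 0.36 from day 5 to day 28, adjusted p = 0.0105 by edgeR), summed to 0.567 to 0.736 FPKM on day 5, 2.42 and 0.8 FPKM on day 14, and 1.87 and 2.38 FPKM on day 28, with Fcer1a at 0. The part of other cells in the changes of the 10 genes was not tested.

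The 10 immediate early and heat shock genes, which respond to tissue digestion and sorting and are led by Junb here, summed to 2490 to 2830 FPKM on day 5, 3970 and 4650 FPKM on day 14, and 2800 and 3680 FPKM on day 28. On day 14, 4 of them were higher than on day 5, Fos, Jun, Egr1 and Ier2, with log2 fold changes of 1.13, 1.51, 1.39 and 0.95 (adjusted p = 0.0209, 0.00926, 0.0383 and 0.0484 by edgeR's quasi-likelihood test, Benjamini-Hochberg adjusted), and on day 28 Fos (0.78 ± 0.20, adjusted p = 0.0301) and Jun (0.72 ± 0.19, adjusted p = 0.0321) were above day 5. The sum was highest in replicate 2 of day 14, the library in which Prdx1, Gclm and Nqo1 were high while Slc7a11, Gclc and Srxn1 were below their day 28 levels, and its part in the result was not tested.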

How the data were processed

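RNASeq libraries were made from polyA+ RNA of sorted macrophages, and by their processing notes and methods the authors trimmed reads with cutadapt 1.8, mapped them to mm10 with TopHat2 2.0.13 and quantified genes with Cuffdiff 2.2.1. The authors deposited, per gene and library, estimated counts (fragments assigned to the gene), fragments scaled to a common library size (a signal used here as an alternative scaling), and FPKM. The FPKM values carry the same Cuffdiff factor of each library, so levels, folds and limma fits in FPKM rest on it too. The estimated counts were rounded, of which 1.01% were not whole, none of them in the 10 genes. Library totals ran from 18027190 to 35247116 fragments.

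All 7 libraries were fitted together in edgeR 4.0.16 (R 4.3.3) with TMM scaling, filterByExpr by day and the quasi-likelihood test, and p-values were Benjamini-Hochberg adjusted over 12858 genes. Residual degrees of freedom were 4. The procedure was tested on simulated data with the same spread set for every gene, so that test does not give its error rate in these libraries. A gene was called at an adjusted p under 0.05. DESeq2 1.42.0, limma 3.58.1 on log2(FPKM + 1) and log2(FPKM + 0.1), other scalings, no filter, the compared days alone, a replicate block, a threshold of 0.01 and each library left out were tried as alternatives.

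The 10 genes and the gene lists were chosen with earlier results of these data known. Named are the 10 genes, every called gene and the most abundant gene of each related list, the macrophage markers, and the 3 genes most correlated with each called gene of the 10. Adgre1 and Siglecf were read under their older symbols Emr1 and Siglec5. FPKM values of different genes are compared as levels per length. Motifs were searched in RefSeq promoters of 300 bases.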

Additional observations from a re-analysis of the deposited data

How the results depend on the processing

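Every call among the 10 genes rests on 2 or 3 libraries a day and 4 residual degrees of freedom. Over 15 alternatives, Slc7a11 and Srxn1 were called between day 5 and day 28 in every one and at an adjusted p under 0.01, where 2 of the 10 genes and 597 genes in all were left. TMM, RLE and cuffdiff scaling gave the same 4 calls among the 10 genes. The cause of the differences below was not tested. Some of the fits also had fewer libraries, and the part of this was not tested either.

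Among the 10 genes, DESeq2 called 1 and no expression filter 3 between day 5 and day 14, and 2 and 3 between day 14 and day 28. With each library left out the calls ran from 0 to 4 in each of these comparisons and from 2 to 6 between day 5 and day 28, where DESeq2, no filter and the compared days alone gave 6, with 2485, 2466 and 2778 genes called in all.

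Among all genes, the 614 called between day 5 and day 14 became 1366 with DESeq2, 1429 with no filter, 252 and 277 with limma on log2(FPKM + 1) and log2(FPKM + 0.1), 315 with the compared days alone, 24 at an adjusted p under 0.01 and 52 to 1728 without 1 library. The 8 called between day 14 and day 28 became 332 with DESeq2, 390 with no filter, 0 with either limma fit, with the compared days alone and at an adjusted p under 0.01, and 0 to 629 without 1 library. The 1960 called between day 5 and day 28 became 452 to 2746 without 1 library.

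Replicate numbers recur between the days in the labels. Deviations of same-numbered libraries from the mean of their day correlated at 0.175 to -0.0538. With 2 or 3 libraries a day, these values cannot decide whether same-numbered libraries shared a batch. With the replicate number as a block (2 residual degrees of freedom), 0, 0 and 2 of the 10 genes and 6, 0 and 735 genes in all were called in the comparisons of day 14 with day 5, day 28 with day 14 and day 28 with day 5.

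Signs turned 10 times among the 10 genes, each time with 1 library left out and for a value that had not been called. From day 5 to day 14, the log2 fold change of Gclm ran from -0.083 to 1.14, that of Txnrd1 from -0.44 to 0.016 and that of Gsr from -0.50 to 0.037. From day 14 to day 28, that of Nqo1 ran from -0.39 to 1.39, that of Gclm from -0.16 to 1.06 and that of Gsr from -0.089 to 0.44. From day 5 to day 28, that of Keap1 ran from -0.018 to 0.13. Nqo1, with 11 to 138 fragments a library, is the gene of the 10 with the fewest fragments.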
